A study of Homo sapiens with 6 samples.

Results

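The numbered zinc finger genes from ZNF500 to ZNF799 were followed in C4-2, an established line of human prostate cancer cells obtained from LNCaP xenografts in castrated mice. Members were the protein-coding genes whose symbol in the array's annotation runs from ZNF500 to ZNF799, with or without a closing letter, and 196 of the 14812 named genes met this. For the 5 of them with more than 1 probeset, the probeset with the highest mean stood for the gene. There were 6 arrays in 3 groups, with 2 biological replicates each by their labels. Control cells carry the label of a DMSO vehicle. The second group received NU7441, a small molecule that blocks the kinase activity of DNA-PKcs, at 1 µM for 24 h. The third was depleted of DNA-PKcs, the catalytic subunit of the DNA end-joining kinase DNA-PK, with an siRNA pool against its gene PRKDC for 96 h. All groups were C4-2 cells grown in medium with hormones, so every culture comes from 1 line. The labels' treatment text also speaks of a control siRNA pool, but the control arrays are labelled by DMSO alone, so it is not known here whether those cells were transfected. The depletion was transient, and PRKDC itself was not analysed here, so the labels alone define that group.

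Most genes with such names encode proteins built from tandem C2H2 zinc fingers, short folds that hold a zinc ion with a pair of cysteines and a pair of histidines and read DNA bases one finger after another. Many also carry a KRAB domain, which recruits the corepressor TRIM28 and through it the histone methyltransferase SETDB1, HP1 proteins and histone deacetylases. This machinery is best known for silencing transposable elements, and its genes lie in large clusters on chromosome 19 that arose by repeated duplication. A few numbered ZNF genes do other work, in ribosome assembly, RNA binding or as non-KRAB transcription factors.

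The bases just before the gene start of several members are shown first. Promoter letters do not depend on the array values. The members shown, however, were chosen by their array values and for carrying the motif marked. RefSeq promoters (GRCh38.p14, 250 bases before to 50 after the gene start) were matched for 161 of the 196 members. The ETS core CCGGAAG, on either strand, was present in 63 of them (39.1%), against 1516 of 9704 promoters of protein-coding genes tested here (15.6%) and 10.7% of all 27305 promoters of this length. The other numbered ZNF genes, outside the range from ZNF500 to ZNF799, had it in 92 of 234 (39.3%), a share like that of the members. In the next 4 stretches, each the 120 bases before the gene start on the gene's own strand, capitals mark that core. The first 3 belong to genes that rose under NU7441 and ZNF778 to one that fell. ZNF580 lies at chr19:55640882-55641001 (+), ZNF740 at chr12:53180602-53180721 (+), ZNF609 at chr15:64460458-64460577 (+) and ZNF778 at chr16:89217583-89217702 (+).
ZNF580: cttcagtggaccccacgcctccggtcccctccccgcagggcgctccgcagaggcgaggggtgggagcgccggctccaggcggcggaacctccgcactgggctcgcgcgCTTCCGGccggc
ZNF740: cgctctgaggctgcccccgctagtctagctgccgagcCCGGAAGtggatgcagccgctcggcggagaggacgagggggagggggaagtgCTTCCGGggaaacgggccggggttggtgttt
ZNF609: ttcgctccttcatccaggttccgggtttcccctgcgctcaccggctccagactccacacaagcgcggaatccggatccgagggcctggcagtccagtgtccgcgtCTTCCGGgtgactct
ZNF778: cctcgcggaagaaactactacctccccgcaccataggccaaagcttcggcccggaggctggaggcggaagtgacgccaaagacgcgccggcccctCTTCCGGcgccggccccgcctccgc
The core began 12 bases before the start in ZNF580, 15 in ZNF609, 25 in ZNF778, and 83 and 31 in ZNF740.

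The CCAAT box, whose letters are CCAAT on either strand, was in 76 of 161 member promoters (47.2%), against 36.2% of protein-coding genes tested. The other numbered ZNF genes had it in 48.7%. It is shown in ZNF775, the member that rose most under NU7441, and in ZNF695 and ZNF682, the members that fell most. These windows are chr7:150379210-150379329 (+), chr1:247008058-247008177 (-) and chr19:20039506-20039625 (-), with the box in capitals.
ZNF775: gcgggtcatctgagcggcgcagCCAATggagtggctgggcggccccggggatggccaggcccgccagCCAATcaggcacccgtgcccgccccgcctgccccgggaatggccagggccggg
ZNF695: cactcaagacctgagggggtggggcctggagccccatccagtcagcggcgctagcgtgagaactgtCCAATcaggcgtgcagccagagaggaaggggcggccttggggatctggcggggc
ZNF682: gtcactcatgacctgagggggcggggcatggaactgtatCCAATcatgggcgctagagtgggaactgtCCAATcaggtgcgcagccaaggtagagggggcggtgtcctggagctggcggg
A box began 98 and 53 bases before the start in ZNF775, 54 in ZNF695, and 81 and 52 in ZNF682. ZNF593, with the smallest adjusted p between the treatments, carried the cyclic AMP response element TGACGTCA 62 bases before its start (chr1:26169788-26169907, +), in capitals here.
ZNF593: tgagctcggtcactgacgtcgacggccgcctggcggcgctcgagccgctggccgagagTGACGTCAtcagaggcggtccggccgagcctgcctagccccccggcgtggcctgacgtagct
That element was in 7 of 161 member promoters (4.35%), against 2.72% of protein-coding genes tested. The other motifs searched, on both strands, were NRF1 in 2.48% of member promoters, E2F (TTCCCGCC) in 4.35%, YY1 in 2.48% and the TATA box (TATAAA) in 3.73%, against 1.99%, 4.37%, 2.14% and 8.19% of protein-coding genes tested. Among promoters of the other numbered ZNF genes 2.56% had the TATA box. No motif's letters contain another's. A match describes letters and shows no binding.

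Promoter letters were also set beside the response to NU7441. The ETS core was in 3 of 8 matched promoters of members that rose, 9 of 25 of those that fell and 51 of 128 of those that did not pass. The median GC content was 70.5% for the 8 that rose, 59.0% for the 25 that fell and 61.3% for the other 128, and the median number of CG pairs in 300 bases was 33.5, 21 and 22. These medians were not tested, and single members that did not pass had promoters with more GC than those that rose.

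The values are linear probeset intensities with a floor at 16, and they do not compare levels between genes. Both control arrays had a median member intensity of 43.2. It was 29.9 and 41.9 under NU7441, and 43.1 and 41.1 after knockdown. NU7441 replicate 1 stood apart: 14 of its 196 members were under 17, against 4 on NU7441 replicate 2 and 2 to 6 on the other arrays, and the same array held 9.75% of all genes tested under 17, against 1.23% to 4.59% elsewhere. It read lower than its partner for 133 members (67.9%) and for 59.8% of all genes. Over members the Pearson correlation of log2 values between the arrays of a group reached 0.974 in controls, 0.939 after knockdown and 0.870 under NU7441, and the median SD between replicates was 0.09, 0.16 and 0.29, against 0.09, 0.14 and 0.21 over all genes. The 6 luminal prostate markers analysed here, KLK2, KLK3, HOXB13, FOLH1, KRT8 and KRT18, had a summed intensity of 2686 to 3558 on every array. No measured basal, neuroendocrine, stromal, endothelial or leukocyte marker (11 genes) had a group mean above 46.7. In such bulk RNA, fewer cells of a kind and less RNA per cell cannot be told apart.

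**Figure D1:**
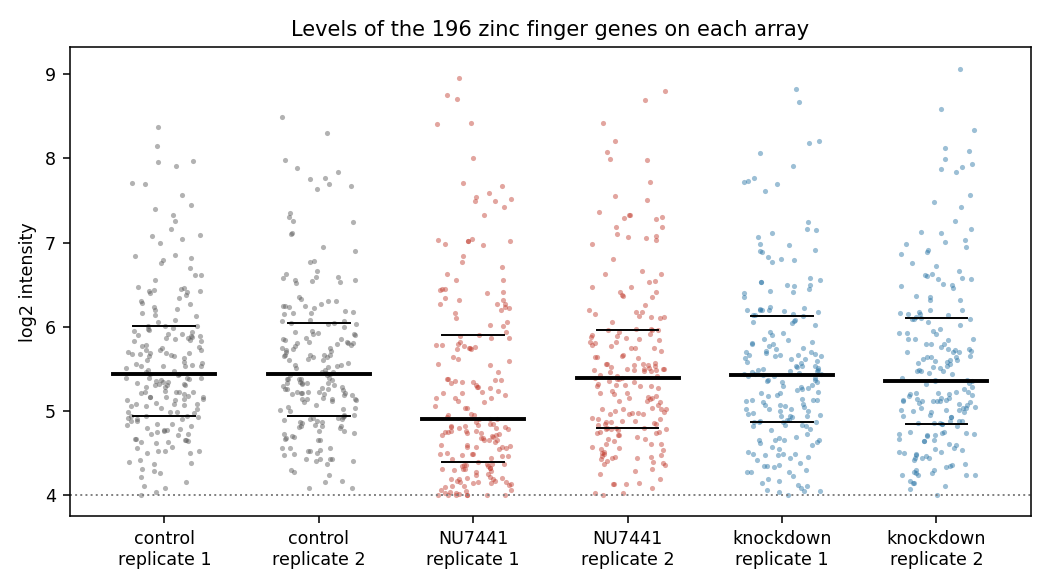
Log2 intensity (vertical axis) of the 196 members on each of the 6 arrays, 1 point per gene, with the median as a thick bar, the quartiles as thin bars and the floor of 16 as a dotted line. The median of NU7441 replicate 1 lies below those of the other 5 arrays, which differ little.

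Under NU7441, 10 zinc finger genes rose and 25 fell, and 161 did not pass limma's moderated test at an adjusted p of 0.05. The members that rose did so by 1.47 to 2.20-fold and those that fell reached 2.73-fold. Of all genes tested 10.8% were called higher and 22.4% lower (33.2% in all), against 5.10% and 12.8% of members (17.9%), so members were called less often than the background in each direction, a difference given here as a description. It is not particular to the members, since 7.75% and 13.7% of the 271 other numbered ZNF genes were called. Both NU7441 arrays lay above both controls for 39 members (19.9%) and below for 78 (39.8%), beside 22.7% and 47.3% of all genes.

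ZNF580 rose with the smallest adjusted p among the members. It read 241 and 236 in controls, 496 and 448 under NU7441, and 290.1 and 322 after knockdown. The NU7441 arrays lay well above all others, and the log2 difference was 0.98 ± 0.14 (limma's standard error, n = 2 per group, adjusted p = 0.00156). ZNF580 was the 1 member whose call under NU7441 held in all 15 alternatives tried, some of which nearly repeat each other. ZNF775 read 42.1 and 44.0 in controls, 130.0 and 69.1 under NU7441, and 38.3 and 42.0 after knockdown, a rise of 1.14 ± 0.31 (adjusted p = 0.0211). Both treated arrays were above both controls, but they differed from each other by more than the lower of them differed from control.

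ZNF740 rose from 81.2 and 75.6 to 160.5 and 135 (0.91 ± 0.20, adjusted p = 0.00958). ZNF771 rose from 73.7 and 109 to 181 and 157 (0.91 ± 0.23, adjusted p = 0.0155), with control arrays that were further apart than those of the other members that rose. ZNF524, a protein reported to bind telomeric DNA, rose from 78.8 and 77.5 to 130.1 and 146 (0.82 ± 0.19). None of these had a control array as high as a NU7441 array. ZNF706, a small single-domain protein linked to the exit of mouse stem cells from pluripotency, rose by 0.80 ± 0.24, and ZNF609, which is also the host of a well-known circular RNA and acts in neuron migration, by 0.76 ± 0.22. ZNF672 rose by 0.72 ± 0.20. ZNF518B, reported to associate with the histone methyltransferases G9a and EZH2, rose by 0.59 ± 0.18, and ZNF507 by 0.56 ± 0.14, from 249 and 216 to 344 and 341. The adjusted p of the 10 ranged from 0.00156 to 0.0347, and 3 of them lie on chromosome 19.

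The lowest log2 difference belonged to ZNF695, a KRAB zinc finger gene. It read 84.9 and 80.7 in controls, 25.6 and 36.0 under NU7441, and 74.7 and 55.5 after knockdown, a fall of 1.45 on the log2 scale (-1.45 ± 0.27, adjusted p = 0.00515). ZNF682 read 62.0 and 65.6 in controls and 16.6 and 37.6 under NU7441 (-1.35 ± 0.36, adjusted p = 0.0206), so one treated array sat at the floor and the other did not. ZNF778 fell from 52.7 and 60.0 to 17.7 and 31.8 (-1.25 ± 0.30). In both, NU7441 replicate 1 gave the lower value.

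ZNF500 (-1.23 ± 0.37), ZNF747 (-1.23 ± 0.27) and ZNF780A (-1.15 ± 0.36) showed the same split, with values on NU7441 replicate 1 of 17.2, 27.9 and 17.8 against 38.6, 39.2 and 41.1 on replicate 2. The next 3 had NU7441 arrays closer to each other. ZNF626 fell from 39.6 and 43.5 to 19.8 and 17.7 (-1.15 ± 0.20, adjusted p = 0.00409). ZNF589, a KRAB protein first described in blood stem cells, fell from 97.9 and 96.7 to 40.9 and 49.5 (-1.11 ± 0.22, adjusted p = 0.00636). ZNF770 fell from 168 and 207 to 87.0 and 85.0 (-1.12 ± 0.20, adjusted p = 0.00396), and its other probeset read 188 and 187 in controls against 39.2 and 53.2 under NU7441, a log2 difference of -2.04. Both probesets thus put it lower, to different degrees. ZNF675, a KRAB protein that binds the signalling adaptor TRAF6, fell by 1.05 on the log2 scale (-1.05 ± 0.28).

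Of the 25 members that fell, 12 lie on chromosome 19. ZNF768, which binds an old family of interspersed repeats and is reported downstream of RAS, fell from 116 and 109.9 to 54.2 and 62.7 (-0.95 ± 0.21, adjusted p = 0.00994). ZNF668, described as a tumour suppressor in breast cancer, fell from 47.0 and 48.7 to 26.1 and 25.3 (-0.90 ± 0.25, adjusted p = 0.0225). Its other probeset differed by -0.37, and with both probesets averaged the gene did not pass. ZNF639 (-1.02 ± 0.23), chosen after its values were seen, fell from 152 and 153 to 61.3 and 92.1. Of the 25 that fell, 19 were lower on NU7441 replicate 1 than on replicate 2.

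**Figure D2:**
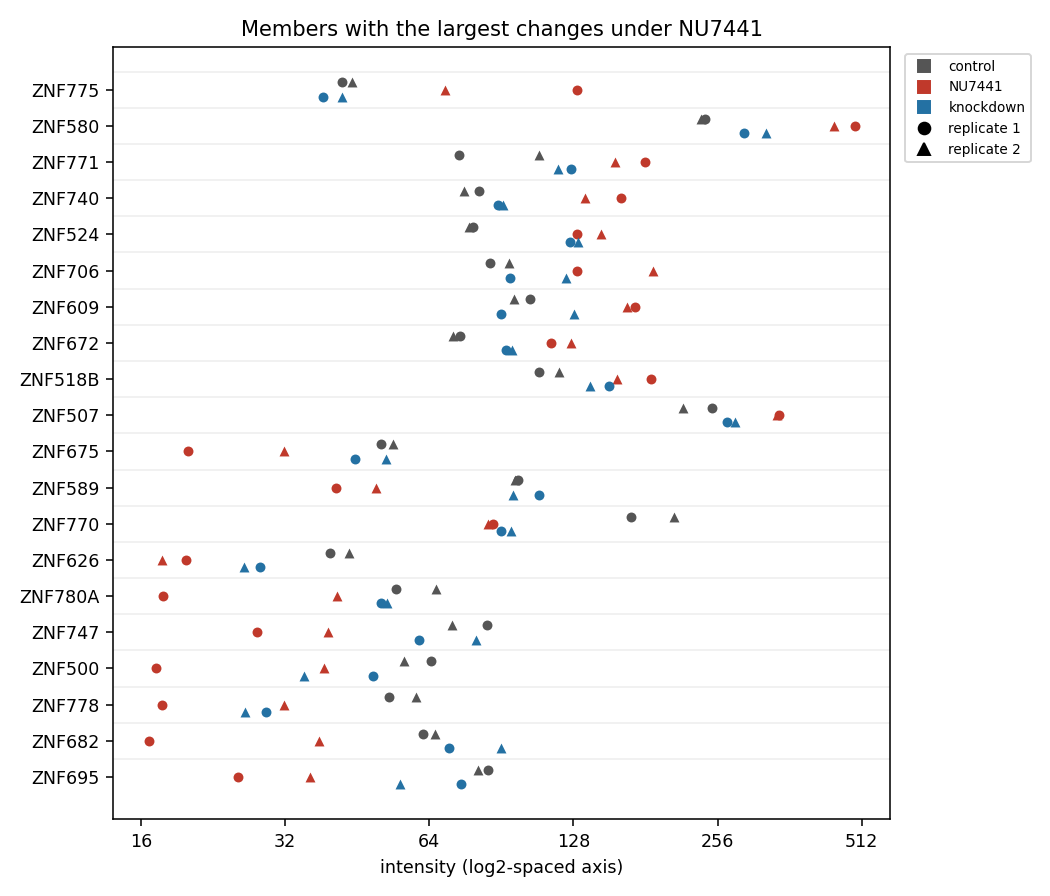
Intensity on a log2-spaced axis of the 10 members that rose under NU7441 and the 10 with the lowest differences among those that fell, 1 point per array, with colour for the group and shape for the replicate. All NU7441 points lie on one side of the control points for each gene, and for ZNF682, ZNF500, ZNF778 and ZNF780A replicate 1 lies between 16.6 and 17.8, near the floor of 16, as does replicate 2 of ZNF626 at 17.7.

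How dim a probeset was went with the direction of its change. Among the 64 members with a mean log2 level under 5, none rose and 6 fell (9.38%), beside 0.729% and 20% of all genes at that level. Between 5 and 6, 1 of 86 rose and 14 fell, beside 4.10% and 22.4% of all genes. Between 6 and 7, 6 of 31 rose and 4 fell, beside 17.4% and 23.4%. The median log2 difference of members at these 3 levels was -0.25, -0.22 and 0.22, against -0.29, -0.30 and -0.05 for all genes, so members lay above the general shift at each. Between 7 and 8, 1 of 11 rose and 1 fell, beside 30.8% and 24.6% of all genes. At 8 and over 2 of 4 rose and 0 fell, beside 39% and 28.5%.

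Scaling changed the balance. Over the family the median log2 difference was -0.20 as deposited, against -0.23 over all genes. After quantile normalization, which gives every array the same distribution, it was 0.09 against 0.01, with 16 members higher and 11 lower (8.16% and 5.61%, beside 14.3% and 13.8% of all genes, 28% in all). All 10 members that had risen remained called, as did 11 of the 25 that had fallen, and 6 more were called higher, ZNF688 among them (0.92, adjusted p = 0.035). ZNF580, ZNF740, ZNF524, ZNF695, ZNF770 and ZNF589 kept their calls, while ZNF675, ZNF780A, ZNF668 and ZNF534 lost theirs. Leaving out NU7441 replicate 1 gave 17 members higher and 23 lower, with a median of -0.03, beside 38.2% of all genes called. Leaving out NU7441 replicate 2 gave 30 and 70, with a median of -0.38, beside 53% of all genes. Without control replicate 1 only ZNF580 rose and ZNF626 and ZNF770 fell, and without control replicate 2 only ZNF580 and ZNF771 rose and none fell. In these fits 7.1% and 5.86% of all genes were called.

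**Figure D3:**
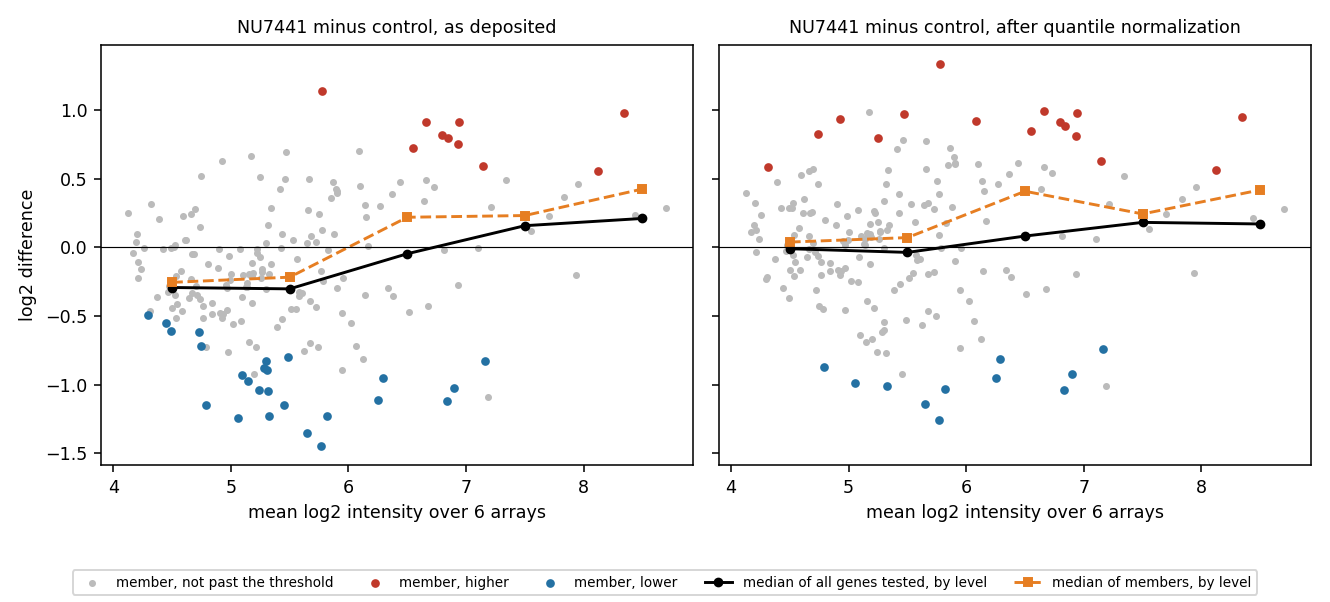
Log2 difference between NU7441 and control (vertical axis) against mean log2 intensity over 6 arrays, for the 196 members, as deposited on the left and after quantile normalization on the right, with the median of members (dashed) and of all genes tested (solid) in 5 level classes drawn at the class middle. Members called lower number 25 on the left and 11 on the right, and those called higher 10 and 16.

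Members with a known role were listed whatever their values, 21 of 22 being measured. Those tied to the ribosome did not move alike. ZNF593, the counterpart of a yeast factor that accompanies the large ribosomal subunit out of the nucleus, read 143 and 163 in controls and 74.6 and 99.1 under NU7441 (-0.83 ± 0.20, adjusted p = 0.015). ZNF622, the counterpart of a later-acting factor of the same subunit, read 332 and 361 in controls and 433 and 414 under NU7441 (0.29 ± 0.13, adjusted p = 0.111). ZNF598, the ubiquitin ligase that marks collided ribosomes, was at 76.9 and 61.9 in controls and 77.4 and 62.3 under NU7441 (0.01 ± 0.24, adjusted p = 0.981). ZNF593 fell, and the other 2 did not pass.

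Among factors tied to epithelial and hormone-responsive cancers, ZNF703, an oncogene of luminal breast cancer, read 208 and 229 in controls but 58.1 and 182 under NU7441 (-1.09 ± 0.42, adjusted p = 0.0697). Its treated arrays were both below the controls and far from each other. ZNF652, a repressor that works with the corepressor CBFA2T3, was at 208 and 219 in controls and 339 and 254 under NU7441 (0.46 ± 0.17, adjusted p = 0.0615). ZNF750, a factor of epidermal differentiation, read 30.3 and 30.4 in controls and 76.9 and 30.2 under NU7441 (0.67 ± 0.38, adjusted p = 0.201), so a single array carried its difference. None of these passed.

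The chromatin-linked members ZNF644, a partner of G9a, ZNF592 and ZNF687, which share a complex with ZMYND8, and ZNF638, an RNA-binding protein that acts with the HUSH silencing complex, had log2 differences of 0.00, -0.02, -0.22 and -0.20. ZNF746, a repressor of PGC-1alpha that parkin marks for breakdown, was at -0.43 ± 0.24 (adjusted p = 0.183). The developmental factors ZNF503, ZNF516, ZNF521, ZNF536, ZNF568, ZNF704 and ZNF711 had control means of 25.4 to 55.1 and differences of -0.41 to -0.01, and none passed. Thus 4 of the 21 genes were called under NU7441, ZNF706 higher and ZNF593, ZNF668 and ZNF768 lower, where 33.2% of all genes were. The members at the top of the intensity scale in controls were ZNF622, ZNF511, ZNF638, ZNF580 and ZNF507, and ZNF511 read 284 and 315 in controls and 418 and 295 under NU7441. At the bottom were ZNF705A, ZNF729, ZNF705G, ZNF735 and ZNF763, with control means of 16.4 to 18.9, where a fall could not be seen. The ZNF705 genes are near-identical copies whose probes may read one another.

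Depletion of DNA-PKcs left no member past the threshold, and none of the 271 other numbered ZNF genes. Of 196 members 0 were called by limma, beside 0.77% of all genes tested (0.284% higher and 0.486% lower), and 20 (10.2%) had an unadjusted p under 0.05 (9 higher and 11 lower), beside 19.6% of all genes. The median log2 difference was -0.02, against -0.09 over all genes, and after quantile normalization 0.10 against 0.01, with 0 members higher and 1 lower beside 0.493% and 0.851% of all genes (1.34% in all). Both knockdown arrays were above both controls for 52 members (26.5%) and below for 58 (29.6%), beside 23.4% and 38.2% of all genes. The members nearest the threshold can still be read array by array.

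ZNF770 read 168 and 207 in controls and 90.4 and 94.7 after knockdown (-1.01 ± 0.20, adjusted p = 0.0537), and it passed after quantile normalization (-1.06, adjusted p = 0.0385). Its other probeset read 188 and 187 in controls and 112 and 111 after knockdown. ZNF534 read 60.0 and 60.2 against 31.2 and 28.9 (-1.0 ± 0.23, adjusted p = 0.0757), and ZNF778 52.7 and 60.0 against 29.2 and 26.4 (-1.02 ± 0.30, adjusted p = 0.112). For these 3 the knockdown arrays lay below both controls. On its other probeset ZNF770 read 39.2 and 53.2 under NU7441, well below the knockdown values. ZNF714 was at -0.83 ± 0.29 and ZNF513, a factor of retinal photoreceptors, at -0.76 ± 0.29, where 29.2 and 25.2 after knockdown stood against 34.3 and 56.4 under NU7441.

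On the higher side ZNF524 read 126 and 131 after knockdown against 78.8 and 77.5 (0.72 ± 0.19, adjusted p = 0.0924), values close to those under NU7441. ZNF622 read 455 and 536 against 332 and 361 (0.51 ± 0.13, adjusted p = 0.0878), and ZNF547 read 195 and 189.8 against 114 and 137 (0.62 ± 0.18, adjusted p = 0.116). All 3 had knockdown arrays above both controls. ZNF587 (0.70 ± 0.25), ZNF649 (0.59 ± 0.30) and ZNF688 (0.54 ± 0.30) completed the highest members, and ZNF688 rested on 1 array, with 54.5 and 101 after knockdown against 51.4 and 50.6. ZNF587 has a close copy, ZNF587B, whose transcripts its probes may also read. Fitted on the control and knockdown arrays alone, whose replicates agree better than those of NU7441, 12 members were higher and 10 lower, beside 19.2% of all genes called in that fit. Leaving out either NU7441 array was no separate check here. The NU7441 array left has no replicate, so the spread again came from the control and knockdown arrays alone.

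Knockdown was then set against NU7441 directly, which tests the difference between the treatments, although both treatment time and agent differ between the groups. After knockdown 10 members were higher than under NU7441 and 2 were lower, 5.10% and 1.02%, beside 5.83% and 2.84% of all genes tested (8.67% in all). The arrays of the treatments did not overlap for 63 members higher after knockdown (32.1%) and 22 lower (11.2%), beside 32.9% and 19.6% of all genes. The comparisons share arrays, so the values below are given side by side and not as separate support.

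ZNF593 had the smallest adjusted p. It read 143 and 163 in controls, 74.6 and 99.1 under NU7441 and 207 and 239 after knockdown, and the 3 groups did not overlap. The difference between treatments was 1.37 ± 0.20 (2.59-fold, adjusted p = 0.00719). ZNF682 read 70.2 and 90.1 after knockdown against 16.6 and 37.6 under NU7441 (1.67 ± 0.36, adjusted p = 0.0261), and 62.0 and 65.6 in controls. ZNF589 read 109 and 95.5 against 40.9 and 49.5 (1.18 ± 0.22, adjusted p = 0.0144), with knockdown at the control level.

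ZNF695 (1.08 ± 0.27, adjusted p = 0.0394), ZNF747 (1.08 ± 0.27, adjusted p = 0.0405) and ZNF668 (0.96 ± 0.25, adjusted p = 0.0433) were also higher after knockdown than under NU7441. ZNF639, at 143 and 153 after knockdown, was 0.98 ± 0.23 higher. In the other direction ZNF775 was lower after knockdown by 1.24 ± 0.31 on the log2 scale (-1.24, adjusted p = 0.0391), and ZNF580 by 0.62 ± 0.14 (-0.62, adjusted p = 0.026). ZNF740, at 89.2 and 91.3 against 160.5 and 135, was just outside the threshold (-0.71 ± 0.20, adjusted p = 0.0569), followed by ZNF513 (-0.69 ± 0.29) and ZNF510 (-0.65 ± 0.26). For ZNF668, ZNF639 and ZNF740 the NU7441 mean was away from control and the knockdown mean near it. ZNF513 showed the reverse, with the knockdown mean away from control. In 6 of the 12 called members both knockdown arrays lay beyond both controls, on the side opposite to the NU7441 arrays. The same held for 292 of the 1284 called among all genes tested. For ZNF775, 1 of the 6, the higher knockdown array lay only just below the lower control.

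After quantile normalization 6 members were higher and 4 lower, beside 5.37% and 4.17% of all genes (9.55% in all), and of the 12 called as deposited 8 remained called. Without knockdown replicate 1 or 2 none passed, beside 0.0473% and 0% of all genes. With the treated groups alone 1 member passed, beside 3.19% of all genes. Leaving out a control array was no separate check of this, since the spread then came from the treated arrays alone. Leaving out NU7441 replicate 1 gave 13 and 11 beside 17.4% of all genes, and leaving out NU7441 replicate 2 gave 48 and 14 beside 34.4%.

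**Figure D4:**
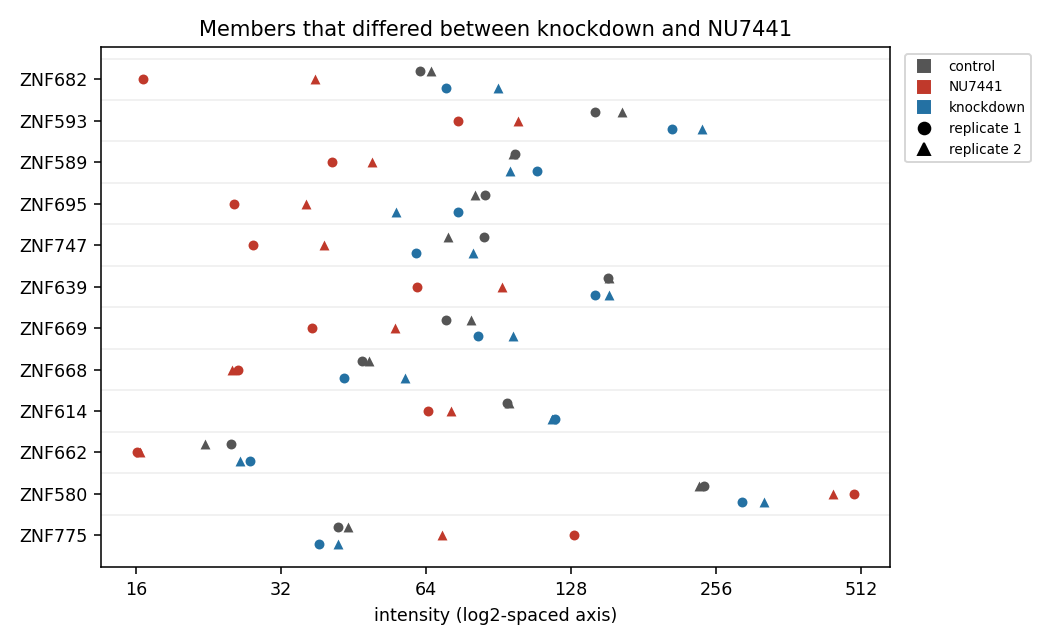
Intensity on a log2-spaced axis of the 12 members that differed between knockdown and NU7441, 1 point per array, with colour for the group and shape for the replicate, ordered by the log2 difference. For 10 of them the knockdown points lie above the NU7441 points, and for ZNF580 and ZNF775 below.

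Responses were also read by position along the chromosomes. Chromosome 19 carries 101 of the 196. Under NU7441, 3 of these rose and 12 fell (2.97% and 11.9%), against 7 and 13 of the 95 elsewhere (7.37% and 13.7%). Of all genes tested 10.8% were called higher and 22.4% lower. The member medians on chromosome 19 and elsewhere were -0.21 and -0.20. In gene order, 42 members formed 11 runs of 3 to 6 adjacent protein-coding genes, and in 8 runs the NU7441 differences had both signs. No run held calls in both directions, but ZNF580 was the only member of a run called higher, so this could hardly have come out otherwise. The 6 neighbours on chromosome 16 from ZNF768 to ZNF689 ranged from -1.23 for ZNF747 to 0.70 for ZNF688. The chromosome 19 run of ZNF784, ZNF581 and ZNF580 lay at 0.44 to 0.98, all above 0, and those of ZNF546, ZNF780B and ZNF780A (-1.15 to -0.07) and of ZNF577, ZNF649 and ZNF613 (-0.82 to -0.04) lay wholly below. ZNF780A and ZNF780B are close copies, so their probes may share signal. Runs outside chromosome 19 were added after the values were seen.

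**Figure D5:**
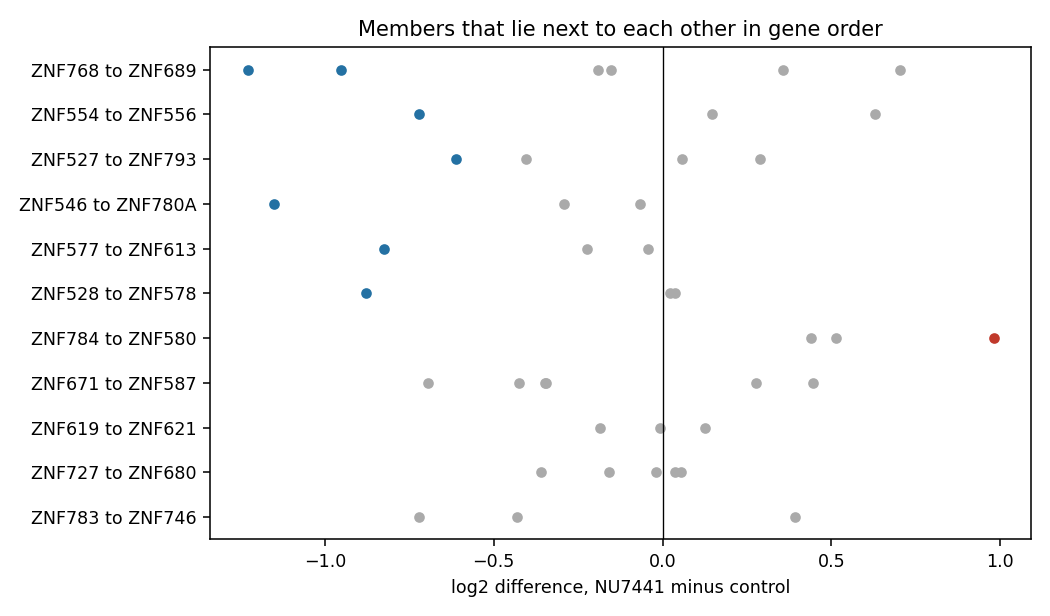
Log2 difference between NU7441 and control (horizontal axis) for the members of each run of 3 or more adjacent genes, 1 point per gene, with genes past the threshold in blue (lower) or red (higher) and the rest in grey. The run from ZNF784 to ZNF580 lies wholly above 0, and in 8 of the 11 runs points fall on both sides.

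RNA of genes that act with KRAB zinc finger proteins or keep the silenced state was read alongside, for 20 of the 22 listed. SETDB1 and TASOR were not among those measured. Of the 20, 5 rose and 6 fell under NU7441, beside 10.8% and 22.4% of all genes. Most of the 20 had a mean log2 level of 7 or more, where larger shares of all genes were called. Those shares were 30.8% higher and 24.6% lower between 7 and 8, and 39% and 28.5% at 8 and over. TRIM28, the corepressor that binds KRAB domains, rose from 388 and 408 to 607 and 484 (0.45 ± 0.15, adjusted p = 0.0422; 0.0519 after quantile normalization). CHD3, a helicase of the NuRD deacetylase complex, rose in both NU7441 arrays above both controls (1.12 ± 0.18, adjusted p = 0.00282), and HDAC1 rose by 0.65 ± 0.12. CHD4, of the same complex, and TRIM33, a relative of TRIM28, rose by 0.42 ± 0.15 and 0.50 ± 0.16, and CHD4 lost its call after quantile normalization.

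CBX3, the gamma form of HP1, fell from 714 and 747 to 340.5 and 359 (-1.06 ± 0.11, adjusted p = 0.000611). HDAC2 fell by 1.25 on the log2 scale (-1.25 ± 0.24), MPHOSPH8 of the HUSH complex by 1.14 (-1.14 ± 0.21) and the maintenance methyltransferase DNMT1 by 1.0 (-1.0 ± 0.17). SUV39H2, a methyltransferase of histone H3 lysine 9, fell from 180.2 and 193 to 30.4 and 93.5 (-1.80 ± 0.42), and UHRF1, which brings DNMT1 to new DNA, by 1.05 (-1.05 ± 0.25). Members of the deacetylase complexes thus moved in opposite directions. After knockdown none of the 20 passed, beside 0.77% of all genes. Nearest were MPHOSPH8 (-1.01 ± 0.21, adjusted p = 0.0594), DNMT1 (-0.80 ± 0.17, adjusted p = 0.0599) and CBX1 (-0.80 ± 0.16, adjusted p = 0.0537). These 3 passed after quantile normalization, beside 1.34% of all genes. Between the treatments 2 were called higher and 3 lower, beside 5.83% and 2.84% of all genes. SUV39H2 (1.57 ± 0.42) and CBX3 (0.81 ± 0.11) were higher after knockdown than under NU7441, and CHD3 (-1.04 ± 0.18), HDAC1 (-0.49 ± 0.12) and CBX5, the alpha form of HP1 (-0.54 ± 0.13), were lower.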

How the data were processed

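Each of the 6 Affymetrix Human Gene 2.0 ST arrays has 1 linear intensity per probeset, as deposited by the authors. Trizol RNA was amplified and biotin-labelled, per the labels' protocols. How probesets were summarised and normalized, and on which build, is not given in the sources used here. Values were taken to log2 with no further scaling. An offset or floor near 16 would understate changes of dim genes. Of 44629 probesets, 15835 had 1 gene symbol in the platform table and 28794 were unnamed here; all 15835 gene identifiers matched the GRCh38.p14 table and 0 symbols changed.

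Group differences came from limma 3.58.1 (R 4.3.3), fitted as 1 linear model over 6 arrays (3 residual degrees of freedom, mean-variance trend), with two-sided p-values adjusted by Benjamini-Hochberg over all 14812 genes and a threshold of 0.05. The model assumes 1 spread for all groups, although NU7441 arrays spread most. The number of arrays limits the precision. The procedure was tested on simulated data, but the outcome is not given here, so it lends no support to the results above. The members and lists were chosen with earlier results of these data known. Members named are the 10 highest and 10 lowest called under NU7441, 5 and 5 in the other comparisons (with uncalled ones where fewer passed), the 5 with the highest and lowest control intensity, and a list with known roles; others are named after their values were seen. Protein domains were not analysed, since no protein sequences were used here. Same-numbered replicates were checked for pairing: the correlations of their deviations from group means were -0.0039, -0.00048 and -0.055. No shared replicate effect was thus seen, which cannot show whether same-numbered cultures were handled together.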

Additional observations from a re-analysis of the deposited data

Results flagged for a closer look

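In 6 members both NU7441 arrays lay on one side of both controls and both knockdown arrays on the other, with the direct limma test between the treatments past the threshold. These are 3.06% of members, beside 1.97% of all genes tested (292 of 14812). The log2 difference, knockdown minus NU7441, was 1.37 for ZNF593, 1.67 for ZNF682 and -1.24 for ZNF775. It was 0.98 for ZNF669 (adjusted p = 0.0482), 0.78 for ZNF614 (adjusted p = 0.0422) and a fitted 0.73 for ZNF662, and these 3 are named after their values were seen. ZNF614 read 94.1 and 95.2 in controls, 64.5 and 72.1 under NU7441 and 118 and 117 after knockdown. ZNF662 was at the floor of 16 under NU7441, at 16.1 and 16.3, so the size of its difference is not settled. After knockdown none of the 6 differed from control past the threshold, and the higher knockdown array of ZNF775 lay only just below its lower control.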

How the results depend on the processing

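Of the 15 alternatives, scaling moved the counts of members called under NU7441 most among those that kept all arrays. Quantile normalization gave 16 higher and 11 lower with a median log2 difference of 0.086, and median centring 30 and 9 with 0.12. Quantile normalization with dim genes left out, which kept 132 members, gave 15 higher and 16 lower with 0.10. Taking off the offset gave a median of -0.45. For knockdown against control, 1 member was called after quantile normalization, with or without dim genes (1 lower), 2 after median centring (2 higher) and 22 with only the compared groups (12 higher and 10 lower). For knockdown against NU7441, quantile normalization and median centring each gave 6 higher and 4 lower, and quantile normalization without dim genes 9 higher and 4 lower. Taking off the offset gave 7 (6 higher and 1 lower), only the compared groups 1 (1 higher and 0 lower) and no mean-variance trend 9 higher and 0 lower. Leaving out each replicate in turn gave 2 to 100 members called under NU7441 (1 to 30 higher, 0 to 70 lower, median -0.38 to -0.03), 0 to 22 after knockdown (0 to 12 higher, 0 to 10 lower) and 0 to 62 between the treatments (0 to 48 higher, 0 to 14 lower). The share of all genes called moved with them, from 5.86% to 53%, 0.00675% to 19.5% and 0% to 34.4%. An arm left with 1 array is assumed to vary like the others. Leaving out an array of the group not compared nearly repeats the fit of only the compared groups. The 15 alternatives are therefore not all separate checks. With the replicate block, 9 members were higher and 26 lower under NU7441, 0 and 0 after knockdown, and 7 and 2 between the treatments. Whether same-numbered arrays are paired is not known. The member median of knockdown minus control, -0.02 as deposited, was 0.10 after quantile normalization and 0.15 after median centring. That of knockdown minus NU7441, 0.14 as deposited, was -0.0034, -0.0074 and, without NU7441 replicate 1, -0.00061. The causes were not tested. The 2 arrays per group and the floor of 16 limit what dim members can show.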
